A study of Mus musculus with 12 samples.

Results

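The genes of hyaluronan synthesis, hyaluronan breakdown and the aggrecan complex were followed in primary chondrocytes treated with dexamethasone (DEX). The 10 genes taken were Has1, Has2, Has3, Hyal1, Hyal2, Cd44, Hapln1, Acan, Vcan and Ugdh, of 18194 genes that the arrays name, and their values were those of the probe sets that the platform annotation gives to them. Of the genes, 9 had probe sets of their own, 23 in all of the 45101 on the array. Both probe sets listed for Hyal1 were listed for Naa80 as well, so that no value could be given to Hyal1 alone. 16 of the 23 probe sets, from 8 genes, were tested, since they averaged 50 or more in some group of arrays.

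Hyaluronan is a long sugar chain, made at the plasma membrane by the synthases Has1, Has2 and Has3 from UDP-glucuronic acid and UDP-N-acetylglucosamine. In cartilage it is the backbone to which many aggrecan molecules (Acan) bind, each held by link protein (Hapln1), and these aggregates hold the water that lets cartilage bear load. Cd44 is a hyaluronan receptor that keeps such aggregates at the cell surface, Vcan (versican) is a related proteoglycan of early and softer matrix, the hyaluronidases Hyal1 and Hyal2 cut hyaluronan, and Ugdh makes UDP-glucuronic acid from UDP-glucose.

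The cultures were monolayers of primary chondrocytes from tibiae, femurs and humeri of E15.5 embryos of CD1 mice, an outbred strain. 2 groups received 100 nM DEX, a synthetic glucocorticoid, for 6 or 24 hrs, and 2 groups received the solvent DMSO as vehicle for the same times, all in fresh medium with ascorbic acid and beta-glycerophosphate, after isolation in medium with fetal bovine serum. Each of the 4 groups held 3 arrays with the replicate numbers 1, 2 and 4, and the study describes 3 independent cell isolations. The RNA came from whole cultures, in which fewer cells of a type and less RNA per cell cannot be told apart.

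In the test without a block, Has2 was the 1 gene of the complex that changed with DEX, and it fell at both times. Its mean intensity (± SD, n = 3 each) was 138 ± 23.0 with DEX against 368 ± 24.1 with DMSO at 6 hrs. At 24 hrs it was 169 ± 24.8 with DEX against 380 ± 48.4 with DMSO. The proteoglycans Acan and Vcan, the link protein Hapln1 and the sugar nucleotide enzyme Ugdh had mean log2 differences above 0 at both times. None of these passed the test without a block. With arrays blocked by pair or hybridization day, 1 or more Hapln1 probe sets other than its brightest passed at 24 hrs, as given below. Has1, Hyal2 and Cd44 had differences below 0 at both times, none of which passed. Of the 8 genes tested, 1 changed in each of the 3 comparisons, in each case Has2, beside 0.225% of all 20897 probe sets tested at 6 hrs (0.0287% lower), 0.287% at 24 hrs (0.0383% lower) and 0.747% over both times (0.167% lower). The test was limma's on log2 intensity with all 12 arrays and no block, and a change was called at an adjusted p under 0.05 (Benjamini-Hochberg over all probe sets tested). The calls for Has2 at the single times did not hold in every setting, as given beside its values.

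The arrays differed in more than treatment. The median intensity lay between 25.7 and 39.1, and 17032 to 20091 probe sets per array were at 50 or above. The 4 arrays of replicates 1 and 2 at 6 hrs, hybridized on 1 day, stood apart from the other 8 on the first principal component (67.35% of the variance), and the log2 difference of the 3' and 5' control probe sets of Gapdh averaged 0.63 on them against -0.29 on the others. Each of the 4 hybridization days held DEX and DMSO arrays, but none held both times, and time cannot be told apart from day. All 15 chondrocyte markers passed the filter, as did 15 of 15 markers of tendon and perichondrial fibroblasts, 6 of 15 macrophage markers, 5 of the 6 measured of 10 osteoblast markers, 7 of 10 skeletal muscle markers and 1 of 10 endothelial markers. Of 10 established glucocorticoid targets, 8 rose over both times.

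The promoters are shown for 3 members, to set a window that holds a binding motif of the glucocorticoid receptor beside those of the link protein and the core protein of the aggregate. The windows are RefSeq's (GRCm38.p6), 250 bases before to 50 bases after the annotated start, and 8 of the 10 members matched, all but Has2 and Has3. The motif searched was the 6 bases TGTTCT, read on both strands (AGAACA on the other), and it was in 19.0% of all 32851 windows. Has1 held 1 match, which begins at the start used for its window and is shown in capitals, and the windows of the other 7 matched members held 0. Windows with a pair of such motifs facing each other 3 bases apart numbered 3 of all, with 0 among the members. The Has1 window lies at chr17:17855139-17855438 on the minus strand, that of Hapln1 at chr13:89540386-89540685 and that of Acan at chr7:79052976-79053275, both on the plus strand. The Has1 gene reaches to 17855589, beyond its window, and the Hapln1 gene begins at 89540529. For these genes the start used for the window is thus not the outer end of the gene.
Has1: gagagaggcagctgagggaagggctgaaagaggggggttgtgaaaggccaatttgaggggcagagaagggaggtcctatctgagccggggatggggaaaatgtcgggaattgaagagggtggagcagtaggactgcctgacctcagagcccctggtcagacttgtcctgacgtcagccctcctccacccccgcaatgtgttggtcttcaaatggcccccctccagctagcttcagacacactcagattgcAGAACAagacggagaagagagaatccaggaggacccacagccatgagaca
Hapln1: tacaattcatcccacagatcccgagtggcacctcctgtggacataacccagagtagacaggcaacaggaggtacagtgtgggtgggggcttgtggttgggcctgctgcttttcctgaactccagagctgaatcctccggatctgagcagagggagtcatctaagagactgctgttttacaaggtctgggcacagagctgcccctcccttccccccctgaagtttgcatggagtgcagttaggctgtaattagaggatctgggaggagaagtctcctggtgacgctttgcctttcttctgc
Acan: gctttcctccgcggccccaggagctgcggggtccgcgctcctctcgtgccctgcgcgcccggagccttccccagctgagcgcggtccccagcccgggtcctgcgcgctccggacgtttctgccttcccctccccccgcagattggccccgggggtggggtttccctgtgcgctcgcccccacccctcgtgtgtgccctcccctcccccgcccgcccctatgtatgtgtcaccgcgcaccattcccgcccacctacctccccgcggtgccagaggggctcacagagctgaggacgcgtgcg

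The windows differed in base composition. Acan held 31 CG dinucleotides and 74% G and C, whereas Hapln1 held 3 CG dinucleotides and 54.3%, and Has1 held 5 and 57%. The median window of all in the table had 52.7% G and C. Ugdh, with 27 CG dinucleotides and 71%, was close to Acan. Hyal2 held 18 and 58.3%, Vcan 12 and 61%, Hyal1 8 and 57%, and Cd44 6 and 58%. A match says only that the letters are there.

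Has2, which makes most of the hyaluronan of growing cartilage in mice, lies on chromosome 15 (GRCm38.p6, 56665627 to 56694546) and is measured by 2 probe sets. On the brighter, 1418678_at, the DEX arrays of replicates 1, 2 and 4 had intensities of 112, 149 and 154 at 6 hrs, against 356, 396 and 353 on the DMSO arrays. For 24 hrs the values were 194, 144 and 168 with DEX against 409, 324 and 406 with DMSO. All 6 DEX arrays thus lay below all 6 DMSO arrays, and the groups overlapped at neither time. Among all probe sets tested, 2.96% had the DEX arrays below the DMSO arrays without overlap at 6 hrs, and 10.9% at 24 hrs.

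Has2 at 6 hrs had a log2 fold change of -1.43 with an SE of 0.18 (adjusted p = 0.00999). The 24 hrs value was -1.17 with an SE of 0.18 (adjusted p = 0.0282). Over both times it was -1.30 (SE 0.13, adjusted p = 6.71e-04), 2.46-fold lower with DEX. The difference was below 0 in 6 of 6 pairs, a pair being the DEX and the DMSO array of 1 replicate number at 1 time, as it was in 4.71% of all probe sets tested. The same replicate numbers occur at both times, and the study describes 3 cell isolations. The 6 pairs may therefore not be independent of each other. On 1418678_at the mean log2 difference was -1.17, -1.18, -1.54 and -1.20 on hybridization days 1 to 4. It was largest on day 3, whose 4 arrays stood apart, and near -1.2 on each of the others. The second probe set differed in this, as given below. The change at 24 hrs minus that at 6 hrs was 0.25 (SE 0.26, 95% interval -0.32 to 0.82), so that a change of this size between the times was within the error. For this difference limma called 0 of all probe sets tested, with 3.63% at an unadjusted p under 0.05. In order of level, the 6 hrs DEX group was lowest, followed by the 24 hrs DEX, 6 hrs DMSO and 24 hrs DMSO groups, and neither the DEX groups nor the DMSO groups differed from each other beyond their spread.

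The Has2 call over both times stood in each of the 12 fits without 1 array (adjusted p between 0.00110 and 0.00463). The call at 6 hrs was lost without DMSO replicate 1 (adjusted p = 0.0533) or 2 (0.0691) at 6 hrs. Its 24 hrs call needed each of the 6 arrays of that time and was also lost without DEX replicate 2 or DMSO replicate 1 or 2 at 6 hrs (adjusted p between 0.0515 and 0.179). The log2 fold change in these fits ranged only between -1.51 and -1.28 at 6 hrs and between -1.28 and -1.06 at 24 hrs.

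The second Has2 probe set, 1449169_at, gave 131, 159 and 75 with DEX against 359, 384 and 271 with DMSO at 6 hrs. By 24 hrs the values were 164, 133 and 125 with DEX against 361, 180 and 322 with DMSO. Again no DEX array reached a DMSO array of its time, but replicate 2 with DMSO at 24 hrs, at 180, was close to the highest DEX array. Over both times this amounted to a log2 fold change of -1.25 (SE 0.23, adjusted p = 0.0321). At the single times it was -1.53 (adjusted p = 0.167) and -0.98 (adjusted p = 0.518). With the pairs as a block, the change at 6 hrs passed (adjusted p = 0.0213) and that at 24 hrs did not (adjusted p = 0.0540). Its mean log2 difference was -0.43, -1.25, -1.36 and -1.86 on hybridization days 1 to 4, so that it was largest on day 4 and smallest on day 1.

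**Figure D1:**
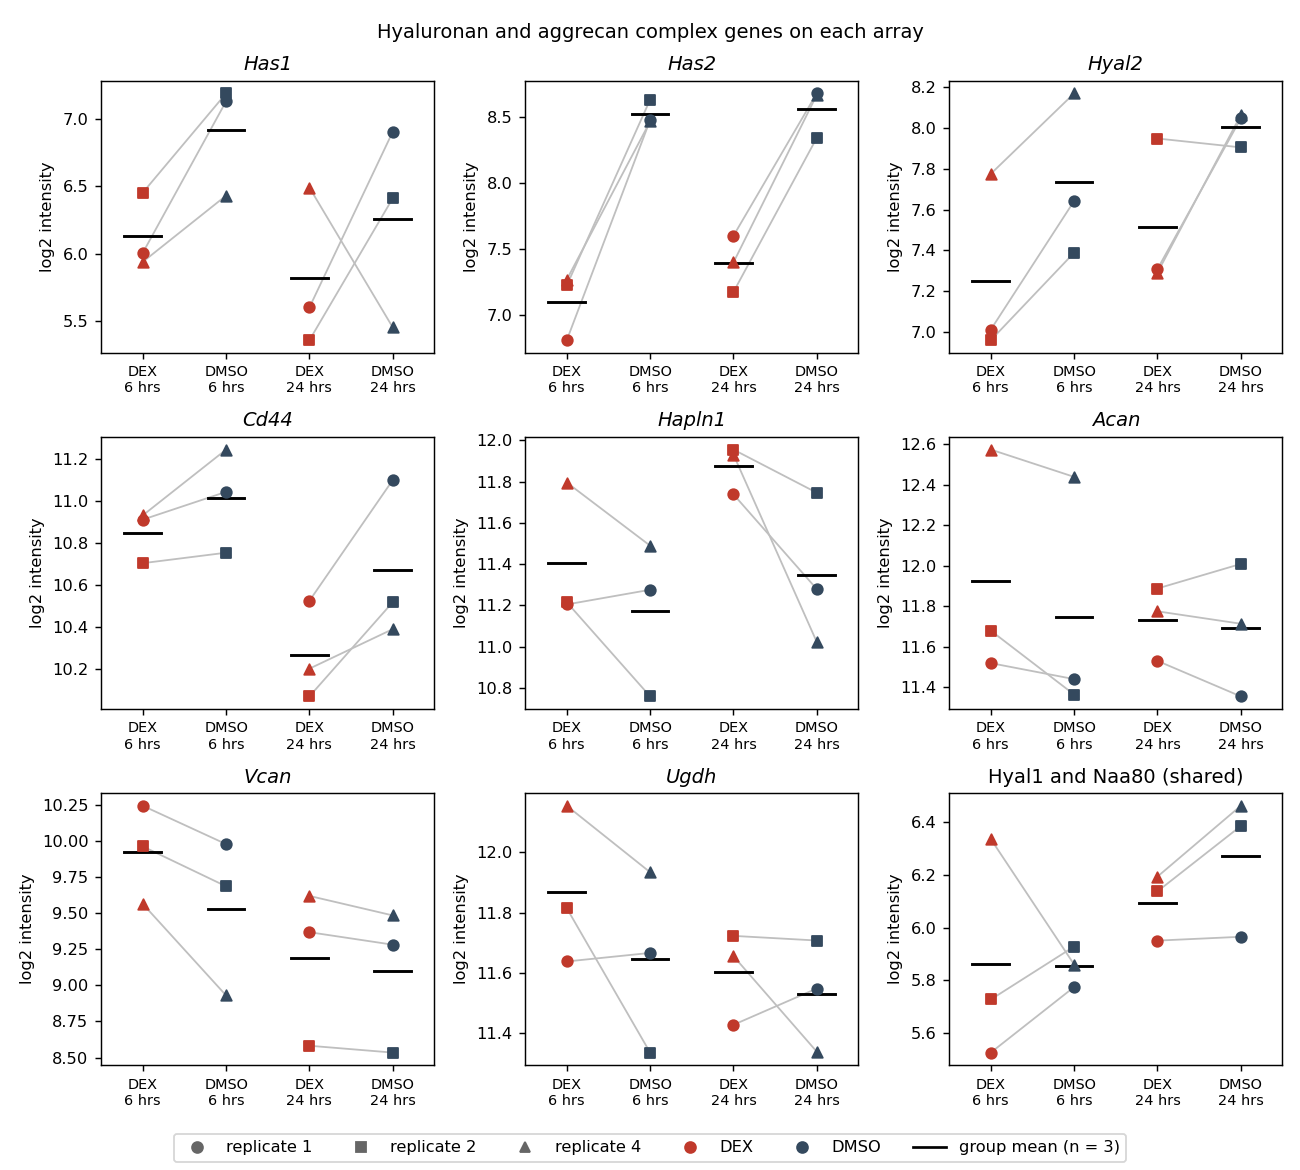
Log2 intensity (vertical axes, each on its own scale) on all 12 arrays for the probe set that stands for each gene, by treatment and time, with replicates as symbols, pairs joined by grey lines and group means (n = 3) as bars. The DEX and DMSO arrays of Has2 do not overlap at either time, whereas those of Has1, Hyal2, Cd44, Hapln1, Acan, Vcan and Ugdh overlap at both. The panel of Hyal1 and Naa80 shows the probe set above the filter that is listed for both genes.

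Has1 (1420590_at), another of the synthases, had 64, 88 and 61 with DEX against 140, 146 and 86 with DMSO at 6 hrs. Its 24 hrs values were 49, 41 and 90 with DEX against 120, 85 and 44 with DMSO. It was lower with DEX in 5 of 6 pairs, as in 12.8% of all probe sets tested. In replicate 4 at 24 hrs it was higher, by 1.04 on the log2 scale. Over both times the log2 fold change was -0.61 (SE 0.28, adjusted p = 0.892), with a 95% interval of -1.23 to 0.01. The probe set of Has3 stayed between 3.95 and 16.2 on all arrays, below the filter, so that a change in Has3 was not tested.

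Of the genes that cut or bind hyaluronan, Hyal2, a hyaluronidase anchored to the cell surface, had 129, 124 and 219 with DEX against 200, 168 and 288 with DMSO at 6 hrs. The 24 hrs arrays gave 159, 247 and 157 with DEX against 265, 240 and 268 with DMSO. The difference was below 0 in 5 of 6 pairs, as in 12.8% of all probe sets tested, and near 0 in replicate 2 at 24 hrs, the pair of day 1 (0.04). Over both times Hyal2 had a log2 fold change of -0.49 (SE 0.20, unadjusted p = 0.0317, adjusted p = 0.744), and with the pairs as a block the adjusted p was 0.0982. The probe set listed for Hyal1 together with Naa80, an acetyltransferase of actin, averaged 60.0 with DEX and 57.9 with DMSO at 6 hrs, and 68.5 with DEX and 78.1 with DMSO at 24 hrs, with log2 fold changes of 0.01 and -0.18, neither of which passed. Hyal1 and Hyal2 are neighbours on chromosome 9 (107576950 to 107581699 and 107567873 to 107572778).

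Cd44 had 1925, 1668 and 1953 with DEX against 2110, 1727 and 2425 with DMSO at 6 hrs on its brightest probe set, 1434376_at. The 24 hrs arrays gave 1474, 1076 and 1179 with DEX against 2194, 1467 and 1342 with DMSO. The groups overlapped at both times. The DEX array was the lower in 6 of 6 pairs, as in 4.71% of all probe sets tested. The log2 fold change over both times was -0.28 (SE 0.16, adjusted p = 1.00), and with the pairs as a block the adjusted p was 0.162. The other 2 Cd44 probe sets above the filter had log2 fold changes of -0.22 and -0.26, below 0 in 5 and 4 of 6 pairs, and neither passed.

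In 24 hrs cultures link protein (Hapln1) averaged higher with DEX on each of its 4 probe sets, but its call depended on the pairing. On the brightest, 1438020_at, the 6 hrs values were 2361, 2378 and 3554 with DEX against 2480, 1734 and 2875 with DMSO. The 24 hrs values were 3416, 3969 and 3903 with DEX against 2486, 3434 and 2082 with DMSO. Only replicate 2 with DMSO, at 3434, reached into the range of the DEX arrays at 24 hrs. On the log2 scale this probe set differed by 0.23 at 6 hrs, by 0.52 at 24 hrs with an SE of 0.25 (adjusted p = 0.844), and by 0.38 over both times with an SE of 0.18 (adjusted p = 0.942). It was above 0 in 5 of 6 pairs, as in 8.32% of all probe sets tested.

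The other 3 probe sets of Hapln1 had their DEX arrays above their DMSO arrays at 24 hrs without overlap, as had 8.45% of all probe sets tested, and log2 fold changes of 0.71 (1421633_a_at), 0.56 (1426294_at) and 0.66 (1426295_at). None passed without a block. With the pairs as a block, 1421633_a_at passed at 24 hrs (adjusted p = 0.0303) and over both times (0.0298), beside 2.15% and 3.2% of all probe sets tested, while 1426294_at (0.0817), 1426295_at (0.0638) and 1438020_at (0.173) did not pass at 24 hrs. With hybridization day as the block, 1421633_a_at (0.0183) and 1426295_at (0.0396) passed at 24 hrs, beside 2.18% of all. The 4 probe sets measure 1 gene and are not independent. For 1421633_a_at the change at 24 hrs minus that at 6 hrs was 0.51 (SE 0.40, 95% interval -0.37 to 1.39). With the pairs as a block the same difference had an interval of 0.13 to 0.89, and that of 1426295_at one of 0.14 to 1.08, both without 0, but neither passed over all probe sets (adjusted p = 0.327 and 0.332), and the other 2 probe sets had intervals that held 0.

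**Figure D2:**
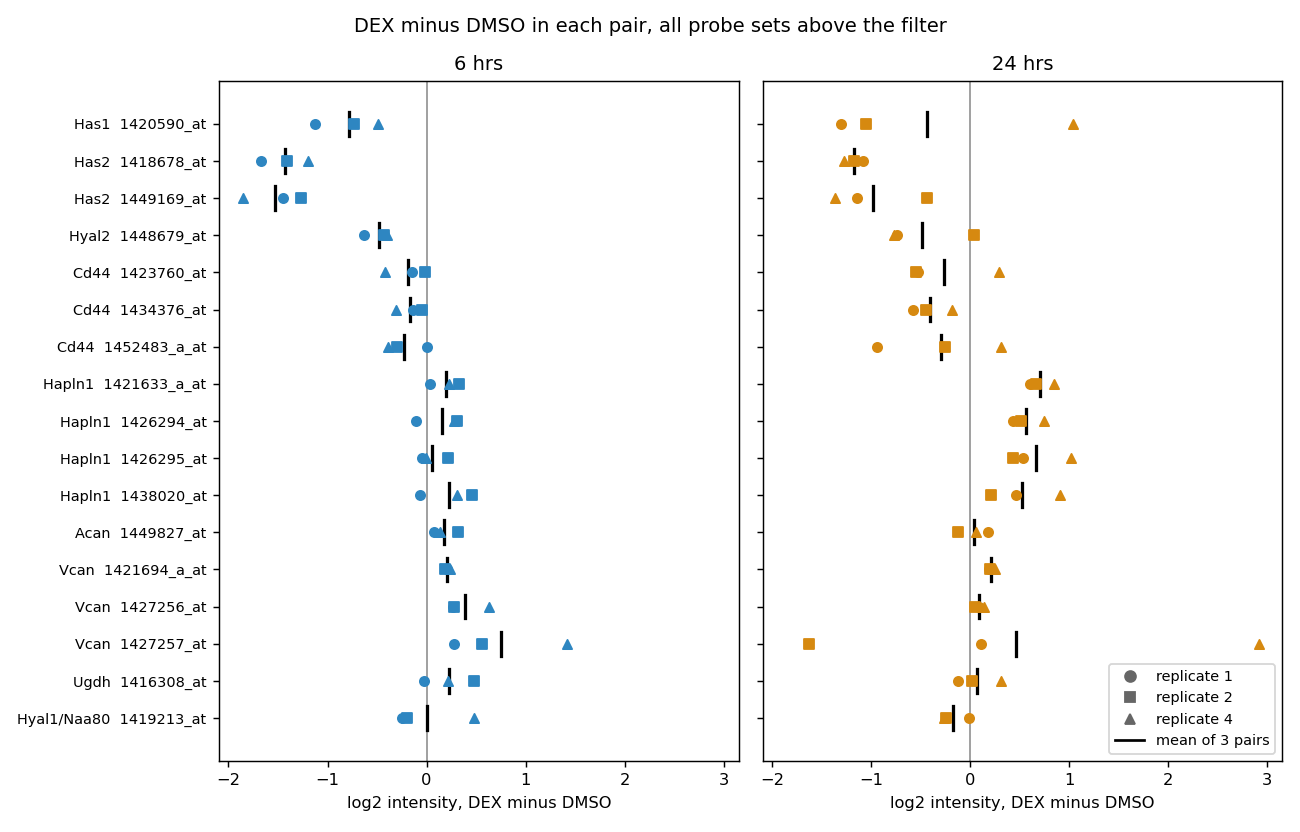
Log2 intensity of the DEX array minus the DMSO array in each pair (horizontal axes) for all probe sets above the filter, at 6 hrs (left) and 24 hrs (right), with a bar at the mean of 3 pairs. Both Has2 probe sets are left of 0 in all 6 pairs, and all 4 Hapln1 probe sets are right of 0 in the 3 pairs at 24 hrs.

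Aggrecan, the core protein that carries most of the chondroitin and keratan sulfate of cartilage, did not pass the test in any of the fits made. Acan (1449827_at) had 2934, 3279 and 6094 with DEX against 2777, 2634 and 5550 with DMSO at 6 hrs. Its 24 hrs values were 2956, 3788 and 3503 with DEX against 2618, 4120 and 3357 with DMSO. Replicate 4 at 6 hrs was the highest under both treatments, and it was hybridized on a day of its own. At 6 hrs the spread within a group was far larger than the difference within a pair. The cause of this spread was not tested. For Acan the log2 fold change over both times was 0.11 (SE 0.24, 95% interval -0.42 to 0.64). With the pairs as a block its SE was 0.081 and its interval -0.08 to 0.30, which leaves out a rise or fall by 0.5 on the log2 scale.

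Versican (Vcan, 1427256_at) had 1214, 998 and 757 with DEX against 1009, 824 and 488 with DMSO at 6 hrs. The 24 hrs arrays gave 661, 383 and 787 with DEX against 623, 371 and 717 with DMSO. Every DEX array was above its paired DMSO array, as in 4.29% of all probe sets tested, yet the groups overlapped at both times. For Vcan the log2 fold change over both times was 0.24 (SE 0.26, adjusted p = 1.00, and 0.226 with the pairs as a block). A second probe set, 1421694_a_at, was also above 0 in 6 of 6 pairs, by 0.21 over both times (adjusted p = 0.204 with the block). The third above the filter, 1427257_at, was above 0 in 5 of 6, but it was dim and uneven. Its group means lay between 40.1 and 94.3, and its pairs at 24 hrs differed by 0.11, -1.63 and 2.91. The other 5 Vcan probe sets were below the filter.

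Ugdh (1416308_at), whose product is needed for hyaluronan and for the chondroitin sulfate of aggrecan, had 3187, 3601 and 4557 with DEX against 3250, 2586 and 3912 with DMSO at 6 hrs. At 24 hrs it had 2756, 3380 and 3227 with DEX against 2995, 3344 and 2591 with DMSO. It was above 0 in 4 of 6 pairs, and the log2 fold change over both times was 0.15 (SE 0.14, 95% interval -0.17 to 0.46). Over both times the 95% intervals of Has2 (-1.59 to -1.01, and -1.51 to -1.09 with the pairs as a block) and Hyal2 (-0.92 to -0.05, and -0.78 to -0.20) lay below 0 in both fits. With the block those of Cd44, Hapln1 and Vcan also left out 0. Of all probe sets tested, 5.65% without the block and 14.7% with it had an unadjusted p under 0.05. With hybridization day as the block, the interval of Cd44 held 0 (-0.58 to 0.016). That of Has1 then left out 0 (-1.21 to -0.015), and neither gene passed (adjusted p = 0.416 for Cd44 and 0.361 for Has1). Of the 5 genes Has2, Hyal2, Cd44, Hapln1 and Vcan, each by its brightest probe set, Has2 alone passed over all probe sets tested, without a block or with the pairs as a block. With the pairs as a block, the Hapln1 probe set 1421633_a_at passed, as given above.

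**Figure D3:**
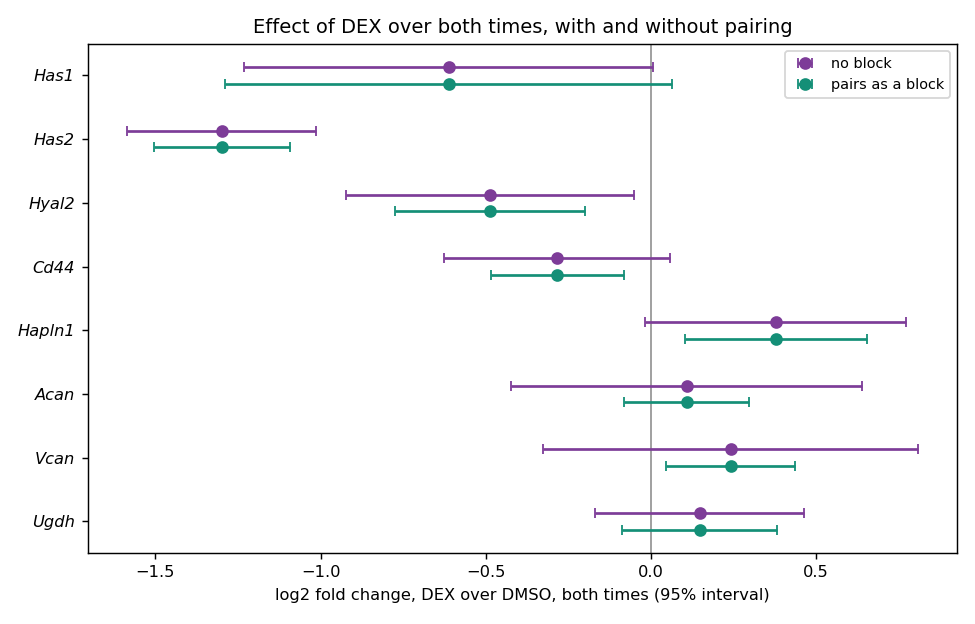
Log2 fold change of DEX over DMSO over both times with its 95% interval (horizontal axis) for the 8 genes tested, without a block and with the pairs as a block. Has2, at -1.30, lies apart from the other genes, which lie between -0.61 and 0.38, and the block narrows the interval of Acan from an SE of 0.24 to 0.081.

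Other genes of the pathway were read from 6 lists with 60 genes, of which 57 had a probe set of their own and 39 were tested. 0 changed at 6 hrs in limma (4 at an unadjusted p under 0.05, beside 3.66% of all probe sets tested), 1 rose at 24 hrs (0.249% of all rose), and over both times 1 rose (0.579% of all) and 1 fell. With the pairs as a block, 1 rose and 1 fell at 6 hrs, 2 rose and 1 fell at 24 hrs, and 2 rose and 2 fell over both times, beside 0.904%, 2.15% and 3.2% of all probe sets tested. The median log2 fold change of all probe sets tested was -0.02 over both times.

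Of 6 tested genes that cut aggrecan and versican or inhibit that cut, 1 rose at 24 hrs and over both times and the others did not pass, with a list median of -0.16 over both times. The gene that rose was Adamts1, a secreted protease that cleaves both proteoglycans. It had 1260, 1206 and 1736 with DEX against 627, 525 and 724 with DMSO at 6 hrs. At 24 hrs it had 1463, 1622 and 1765 with DEX against 536, 474 and 715 with DMSO, with no overlap at either time, as in 3.04% and 8.45% of all probe sets tested. At 6 hrs Adamts1 had a log2 fold change of 1.16 (SE 0.21, adjusted p = 0.0778, and 0.0124 with the pairs as a block). The 24 hrs value was 1.51 with an SE of 0.21 (adjusted p = 0.0166), and the value over both times 1.33 with an SE of 0.15 (adjusted p = 0.00165). The 24 hrs call was lost without DEX replicate 1, 2 or 4 or DMSO replicate 1 or 2 of that time (adjusted p up to 0.106), and the call over both times was kept without any 1 array. Adamts4 and Adamts5, the main aggrecanases of diseased cartilage, had log2 fold changes of -0.40 and -0.01 over both times, Adamts9 -0.35, Adamts15 0.51 and Timp3, an inhibitor of these proteases, -0.31, and none of them passed.

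Of 4 tested genes of other hyaluronan turnover, 1 fell over both times, with a list median of -0.11. This was Cemip, a hyaluronan-binding protein needed for the breakdown of hyaluronan by human skin fibroblasts. It had 64, 64 and 58 with DEX against 117, 125 and 91 with DMSO at 6 hrs. At 24 hrs it had 55, 56 and 61 with DEX against 80, 77 and 85 with DMSO. The DEX arrays lay below the DMSO arrays without overlap, as in 2.96% of all probe sets tested at 6 hrs and 10.9% at 24 hrs. However, the DEX arrays were near the filter of 50. The log2 fold change was -0.66 (SE 0.11, adjusted p = 0.0181, and 0.00600 with the pairs as a block) over both times, and -0.83 (adjusted p = 0.0834, and 0.0240 with the block) at 6 hrs. At 24 hrs Cemip passed in neither fit (-0.49, adjusted p = 0.476, and 0.0761 with the block). The call over both times was lost without the 4 arrays that stood apart (adjusted p = 0.114), and also without any 1 of DEX replicate 2 or DMSO replicates 1 and 2 at 6 hrs or DEX replicates 1, 2 and 4 or DMSO replicates 1 and 4 at 24 hrs (up to 0.0650). Cemip2, a related membrane protein, and the lysosomal enzymes Hexa and Gusb had values of -0.16, 0.05 and -0.07, and none passed.

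The remaining 4 lists held no call without a block. Of 8 tested receptors and binding proteins of hyaluronan, Tnfaip6, which transfers protein chains onto hyaluronan, was below 0 in 6 of 6 pairs, with 197, 205 and 146 under DEX against 451, 403 and 230 under DMSO at 6 hrs and 221, 115 and 175 under DEX against 373, 124 and 389 under DMSO at 24 hrs. Its log2 fold change over both times was -0.81 (adjusted p = 0.660), and it passed with the pairs as a block (0.0293). Among all probe sets tested, 4.71% were lower with DEX in 6 of 6 pairs. Of 12 tested genes that supply the sugar nucleotides, Slc35d1, which carries UDP-sugars into the endoplasmic reticulum and is needed for cartilage in mice, had 914, 1160 and 755 under DEX against 494, 701 and 470 under DMSO at 24 hrs. Its log2 fold change there was 0.77 (adjusted p = 0.614, and 0.0199 with the block). It was above 0 in 6 of 6 pairs, as in 4.29% of all probe sets tested. The genes listed for UDP-N-acetylglucosamine synthesis, Gfpt1, Gfpt2, Gnpnat1, Pgm3, Uap1 and Uap1l1, had values between -0.17 (Uap1l1, with -0.50 at 24 hrs) and 0.20 (Gfpt2, with 0.36 at 6 hrs) over both times, and none passed. Of 3 tested ligands of the C-terminal end of aggrecan and versican, Fbln1 (fibulin 1) had 249, 173 and 266 under DEX against 377, 277 and 474 under DMSO at 24 hrs, with a log2 fold change of -0.70 (adjusted p = 0.888, 0.0411 with the pairs as a block and 0.145 with hybridization day as a block). Its value at 6 hrs was -0.17, and over both times it did not pass with the pairs as a block (adjusted p = 0.0513). Of 6 linkers and sheddases of Cd44, among them Ezr, Rdx, Msn and Mmp14, 0 passed in limma with or without the block, and over both times 0 without the block and 1 with it were under an unadjusted p of 0.05, beside 5.65% and 14.7% of all probe sets tested.

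**Figure D4:**
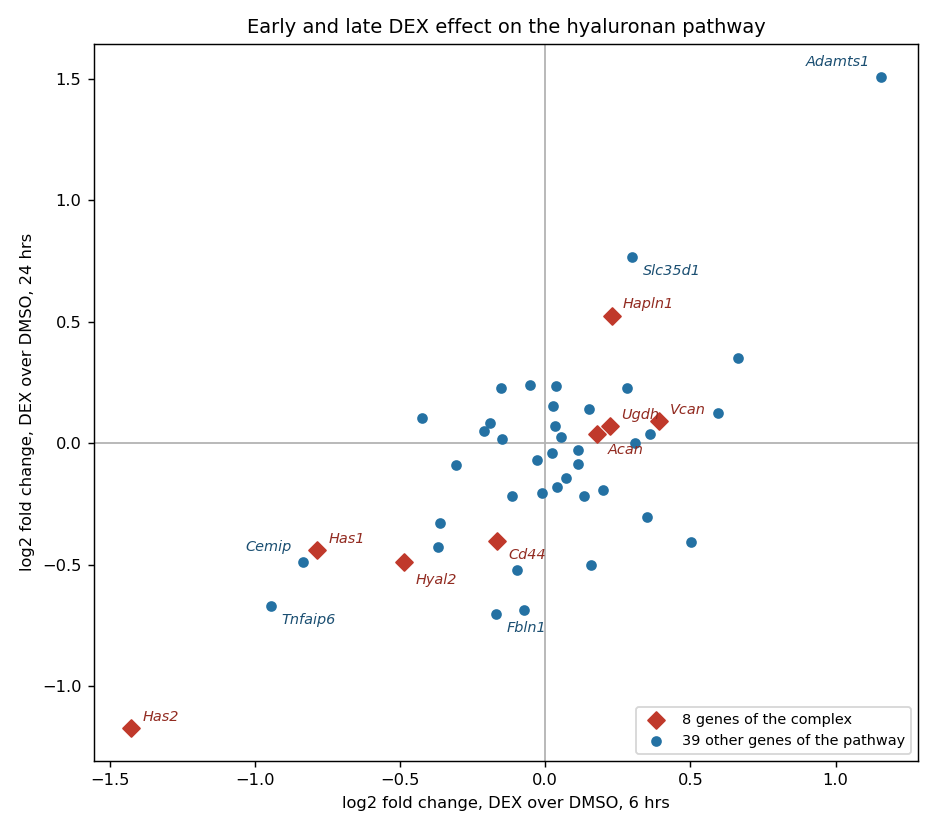
Log2 fold change of DEX over DMSO at 6 hrs (horizontal axis) and at 24 hrs (vertical axis) for the 8 genes of the complex (diamonds) and 39 other genes of the pathway (dots), with the named genes labelled. Has2 is at -1.43 and -1.17, and Adamts1 at 1.16 and 1.51.

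Markers of other cells were set beside these values. The summed level of the 6 macrophage markers above the filter was lower with DEX in 5 of 6 pairs, between 636 and 833 with DEX against 622 and 910 with DMSO at 6 hrs, and between 574 and 711 with DEX against 720 and 874 with DMSO at 24 hrs. Among the macrophage markers below the filter were Ptprc, Itgam, C1qa, Tyrobp and Aif1. The summed level of the fibroblast markers was higher with DEX in 5 of 6 pairs, and that of the osteoblast markers in 6 of 6, between 6306 and 8823 with DEX against 5820 and 5984 with DMSO at 24 hrs. Col1a1 is in both lists, and bright genes weigh most in a sum. The median log2 fold change of the fibroblast markers was -0.03 at 6 hrs and 0.04 at 24 hrs. That of the osteoblast markers was -0.02 at 6 hrs and 0.64 at 24 hrs. The summed level of the chondrocyte markers was higher with DEX in 5 of 6 pairs, between 33107 and 43308 with DEX against 29153 and 42964 with DMSO at 24 hrs. The summed level of the 7 skeletal muscle markers above the filter was higher with DEX in 2 of 6 pairs, between 304 and 791 with DEX against 366 and 1102 with DMSO at 24 hrs, where their median log2 fold change was -0.44. The 1 endothelial marker above the filter was higher with DEX in 3 of 6 pairs. The part of these cells in the values of Has2 and Hapln1 was not tested.

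The genes whose log2 intensity was most like that of Has2 over the 12 arrays, among 11052 genes compared, were Stc1, a secreted glycoprotein hormone (r = 0.96), Il6, a cytokine (0.95), Ccl2, a chemokine (0.94), Plat, the tissue plasminogen activator (0.93), and Chst1, a sulfotransferase of keratan sulfate (0.90). Each of them fell over both times, with log2 fold changes of -1.14, -2.39, -1.75, -1.05 and -1.11 in that order (adjusted p between 0.00356 and 0.0113), so that the likeness includes the difference between DEX and DMSO. Within the complex, the correlation with Has2 was 0.61 for Hyal2, 0.48 for Has1 and 0.32 for Cd44, and -0.47 for Hapln1, -0.41 for Ugdh, -0.25 for Vcan and -0.18 for Acan. Acan was most like Eif2s2 (0.97), Laptm4a (0.96), Calu (0.95), Fat1 (0.94) and Ubr4 (0.94), none of which passed for DEX, and of the complex it was most like Ugdh (0.81) and Hapln1 (0.53). These are descriptions over 12 arrays that share 4 hybridization days and the DEX and DMSO groups.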

How the data were processed

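RNA was measured on Affymetrix mouse genome arrays. In GeneSpring GX, the authors ran GC-RMA (its version is not given in the sources used here) to subtract background and scale the arrays, and the deposited values are linear intensities. An array has no read depth, and the number of arrays limits the precision. From the intensities, log2 was taken with no pseudocount, since all were above 0. Probe sets with a group mean of at least 50 in at least 1 of 4 groups, after the study's methods, were tested with limma 3.58.1 in R 4.3.3 (1 mean per group, 12 arrays in 1 fit, no block). Adjusted p is by Benjamini-Hochberg over 20897 probe sets, and SE is the moderated standard error. Python 3.11.15 and matplotlib 3.10.9 made tables and figures. The fit was run on simulated arrays with known changes, drawn independently and without a shared day or pair effect. That run therefore does not bear on the effects of day or pair in these arrays.

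34958 probe sets had 1 symbol, 932 several and 9211 none in the platform annotation, and 34754 were matched to RefSeq, with 0 symbols changed. A gene is represented by its probe set of the highest mean among those above the filter. Members were named in full, and of each list the genes past the threshold in limma, with or without the pairs as a block. The members, lists and tests were chosen with earlier results of these data known. Replicate numbers were taken from the labels. Deviations from the group means correlated at 0.681, 0.632 and 0.863 in same-numbered DEX and DMSO arrays at 6 hrs and 0.158, 0.301 and 0.220 at 24 hrs, so the numbers were taken to pair them. Such arrays also shared a hybridization day, read from the array files. Arrays of unlike numbers on 1 day correlated at 0.506 and 0.571 at 6 hrs and at 0.0181 and 0.00825 at 24 hrs, so that at 6 hrs a shared day went with nearly as high a value as a shared number. Blocks, filters, scalings, single arrays left out and a Welch t-test (called the methods' t-test, though the study used a Welch ANOVA) were tried as alternatives. The p-values measure the spread between these arrays. The fits over both times treat arrays of 6 and 24 hrs with the same replicate number as independent. Whether they shared a cell isolation was not tested.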

Additional observations from a re-analysis of the deposited data

How the results depend on the processing

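The direction of Has2 was the same in all settings run, and over both times its adjusted p stayed between 1.30e-04 and 0.0217. The count of probe sets changed at 6 hrs was 47, and 189 with the pairs as a replicate block, 198 with hybridization day as a block, 18 with no filter, 0 with only the arrays of that time, 2 within day 3 and 0 by the methods' t-test (Welch, at a false discovery rate of 5%, with 473 at an unadjusted p under 0.05). At 24 hrs it was 60, and 449 with the replicate block, 455 with the day block, 22 with no filter, 163 with only the arrays of that time and 0 by the methods' t-test (1716 at an unadjusted p under 0.05). Over both times it was 156, and 668, 600, 73 and 38 with the replicate block, the day block, no filter and the methods' t-test. The methods' t-test at p under 0.01 gave 127, 380 and 330, with Has2 as the 1 member each time. The difference between the times gave 0 in limma (758 at an unadjusted p under 0.05), and 1 with the replicate block and 1 with no filter. The 1 member gene changed at 6 hrs became 0 with no filter (Has2 adjusted p = 0.0799), only the arrays of that time (0.293), within day 3 (0.184) and by the methods' t-test (1.00), and at 24 hrs 0 with no filter (0.139), the mean of the probe sets above the filter (0.0565), within day 2 (0.0629) and by the methods' t-test (0.414). The cause was not tested. With no filter more probe sets are tested. The SE of Has2 was then also larger, at 0.21 against 0.18 at 6 and at 24 hrs, with the same log2 fold change. The fits of 1 time or day hold fewer arrays.

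Leaving out each array in turn gave 18 to 38 probe sets at 6 hrs, 16 to 88 at 24 hrs, 90 to 156 over both times and 0 to 0 for the difference between the times, and 0 to 1, 0 to 1, 1 to 1 and 0 to 0 members. The sign turned in such fits for log2 fold changes that had passed no test: Acan ranged between -0.15 and 0.52 at 6 hrs, -0.13 and 0.20 at 24 hrs and -0.0549 and 0.28 over both times, Vcan between -0.19 and 0.39 and Ugdh between -0.0257 and 0.16 at 24 hrs, and Fbln1 between -0.51 and 0.20 at 6 hrs. The change at 24 hrs minus that at 6 hrs ranged between -0.0571 and 0.67 for Has1, -0.22 and 0.26 for Hyal2, -0.48 and 0.19 for Acan, -0.59 and 0.00167 for Vcan and -0.30 and 0.00183 for Ugdh. Adding 16 before log2, quantile normalization and median centring changed no call of a member. Outside the complex, the call of Cemip over both times was lost with no filter (adjusted p = 0.138), with quantile normalization (0.0794) and by the methods' t-test (0.291), and that of Adamts1 at 24 hrs with no filter (0.0895), within day 2 (0.0828) and by the methods' t-test (0.482).

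The replicate block changed no call of a gene's brightest probe set in the complex. With 3 arrays per group, intervals as wide as that of Acan without the block do not show that a gene was unchanged, and dim probe sets such as that of Has3 have no usable level.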
